A study of Homo sapiens with 16 samples.

Results

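The matrix metalloproteinases MMP1, MMP2, MMP7, MMP9, MMP14, MMP15 and MMP24 and the tissue inhibitors of metalloproteinases TIMP1, TIMP2 and TIMP3 were read from a table of RNA levels in human lung cancer cells. These 10 genes were taken by name, with earlier results of these data known, out of 60448 gene identifiers in the table. MMP1, MMP2, MMP7, MMP9, MMP14, MMP15 and MMP24 encode zinc proteases of the extracellular space, and the TIMP proteins bind their active sites. All 10 were found, and 8 of them were abundant enough to be tested.

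Metalloproteinases are made as inactive precursors and cut collagens, laminins and other matrix and surface proteins once their propeptide is removed. TIMP2 has a second role besides inhibition, since a complex of the membrane protease MMP14 with TIMP2 captures the precursor of MMP2 and presents it for activation. In lung carcinoma these proteases are known chiefly for breaking down the basement membrane at invasive edges. RNA levels report neither activation nor the protein outside the cell.

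The study used A549, an established lung adenocarcinoma line, and A549/cDDP, its cisplatin-resistant derivative, which was maintained in medium with cisplatin between experiments. It asked how each line responds to cisplatin, a platinum drug that crosslinks DNA, and what knockdown of the long noncoding RNA SCAT7 does in the resistant line. RNA came from 16 libraries in 8 groups of 2. The groups were A549/cDDP with a gapmer against SCAT7 in cisplatin and in solvent, A549/cDDP with a control gapmer in cisplatin and in solvent, untransfected A549/cDDP in cisplatin and in solvent, and untransfected A549 in cisplatin and in solvent. Gapmers are antisense oligonucleotides whose DNA core lets RNase H cut the bound RNA. Each well held 35000 seeded cells, and cisplatin was given for 24 h at a labelled 15 mM, a unit printed as the labels give it and not checked here. The gapmer dose was 12 pmol, and cells with a gapmer were collected 48 h after transfection, having spent the final 24 h with the drug or its solvent. The resistant line is a single derivative, so any difference from A549 is a difference between 2 cell populations. The labels do not say that the 2 libraries of a group came from separate cultures, so the p-values measure the spread between libraries, which may be technical.

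Levels are in FPKM, fragments scaled by gene length and library total, which allows comparison between genes. Depth recovered from the lowest values ran from 31350000 to 43140000 fragments a library. Libraries of the SCAT7 gapmer held 31350000 to 33400000 and those of the control gapmer 42300000 to 43140000, so depth moved with the gapmer, and its part in the gapmer comparisons was not tested. ELF3-AS1, the gene that RefSeq lists as SCAT7, averaged 0.716 FPKM with the SCAT7 gapmer and 3.06 FPKM with the control gapmer in solvent. In cisplatin it averaged 1.93 and 3.48 FPKM with the same 2 gapmers. Untransfected A549/cDDP averaged 3.34 FPKM of ELF3-AS1 in solvent and 2.41 FPKM in cisplatin, so the SCAT7 gapmer in cisplatin, at 1.69 and 2.18 FPKM, lay close to the latter. All 8 markers of A549 cells fixed for the check, keratins and NRF2 targets among them, reached 0.5 FPKM in every group, and none of the 3 genes of the locus deleted in A549 did.

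The promoter stretches of 4 members are shown because they differ in composition, and a link between promoter and RNA level was not tested. Sequences are from RefSeq on GRCh38.p14, 5′ to 3′ on the gene's strand, and end just before the most upstream start annotated by RefSeq or GENCODE. They lie at chr11:102530754-102530997 on the minus strand for MMP7, chr14:22836335-22836556 on the plus strand for MMP14, chr16:58025504-58025565 on the plus strand for MMP15 and chr20:35226440-35226653 on the plus strand for MMP24. Capitals mark matches on either strand to TGANTCA, the AP-1 motif, to TATAAA, the TATA box, or to GGGCGG, the GC box.
MMP7: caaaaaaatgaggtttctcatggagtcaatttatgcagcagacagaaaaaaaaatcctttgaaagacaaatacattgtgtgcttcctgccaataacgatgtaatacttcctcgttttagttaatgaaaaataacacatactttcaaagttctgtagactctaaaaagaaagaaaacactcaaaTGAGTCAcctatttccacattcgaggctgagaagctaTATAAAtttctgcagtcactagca
MMP14: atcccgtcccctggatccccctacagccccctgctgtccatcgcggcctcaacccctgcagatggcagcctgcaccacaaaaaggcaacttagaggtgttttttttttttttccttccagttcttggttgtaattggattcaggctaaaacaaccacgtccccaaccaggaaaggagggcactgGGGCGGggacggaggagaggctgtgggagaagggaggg
MMP15: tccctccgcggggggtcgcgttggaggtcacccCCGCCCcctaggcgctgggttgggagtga
MMP24: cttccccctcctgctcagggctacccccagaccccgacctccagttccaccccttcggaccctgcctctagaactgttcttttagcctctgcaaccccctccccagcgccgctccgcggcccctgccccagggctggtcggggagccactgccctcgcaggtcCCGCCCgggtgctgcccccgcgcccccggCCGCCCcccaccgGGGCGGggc
Of the 4, MMP7 was matched by the AP-1 motif, 67 bases before its RefSeq start, and by TATAAA, 30 bases before it. Among 35116 RefSeq promoters of the same 300 bases, 7.71% hold TGANTCA, 11.5% hold TATAAA and 45% hold GGGCGG, on either strand. Over its 300 bases the GC content was 35.7% for MMP7, 55% for MMP14, 75.3% for MMP15 and 80% for MMP24, against a median of 58.7% over all promoters. MMP14 held 1 GC box in those 300 bases, MMP15 held 5 and MMP24 held 3. A match is a description of the letters and not a binding site. The RefSeq promoter table matched 6 of the 10 members, those 4 with TIMP1 and TIMP3; MMP1, MMP2, MMP9 and TIMP2 are named only.

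The inhibitors TIMP1 and TIMP2 were the most abundant members in 7 of the 8 groups. In the remaining group, the SCAT7 gapmer in cisplatin, MMP7 at 114 FPKM stood beside TIMP2 at 113 FPKM, with overlapping libraries. In A549 in solvent the order ran from TIMP1 at 118 FPKM through TIMP2 at 67.5, MMP7 at 23.2, MMP24 at 19.5, MMP15 at 11.2, MMP14 at 2.19 and MMP2 at 1.94 to TIMP3 at 0.197, MMP9 at 0.132 and MMP1 at 0.00721 FPKM, and the libraries of no pair of neighbours overlapped. In A549/cDDP in solvent MMP2 at 60.4 FPKM came next after the inhibitors, followed by MMP7 at 46.8 and MMP9 at 17.2 FPKM, ahead of MMP24 at 9.07, MMP15 at 5.11 and MMP14 at 2.02 FPKM. There TIMP1 at 131 and TIMP2 at 127 FPKM overlapped, and the libraries of all other neighbours stood apart.

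TIMP3, the inhibitor that binds to the matrix, was too low to read, with a highest group mean of 0.29 FPKM. Its libraries lay between 0.0256 and 0.306 FPKM. Without the filter on low values, TIMP3 in A549/cDDP against A549 changed by -0.35 in solvent and -0.51 in cisplatin (limma adjusted p = 0.00055 and 3.67e-05). It changed by 0.18 with cisplatin in A549 and by 0.21 with the SCAT7 gapmer in cisplatin (limma adjusted p = 0.0353 and 0.0227). TIMP3 passed in no other comparison, and these log2 changes rest on group means under 0.5 FPKM. MMP1, the interstitial collagenase, was readable only with the SCAT7 gapmer in cisplatin, where its group mean was 0.647 FPKM, and its mean over the 16 libraries of 0.211 FPKM was too low to test.

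**Figure D1:**
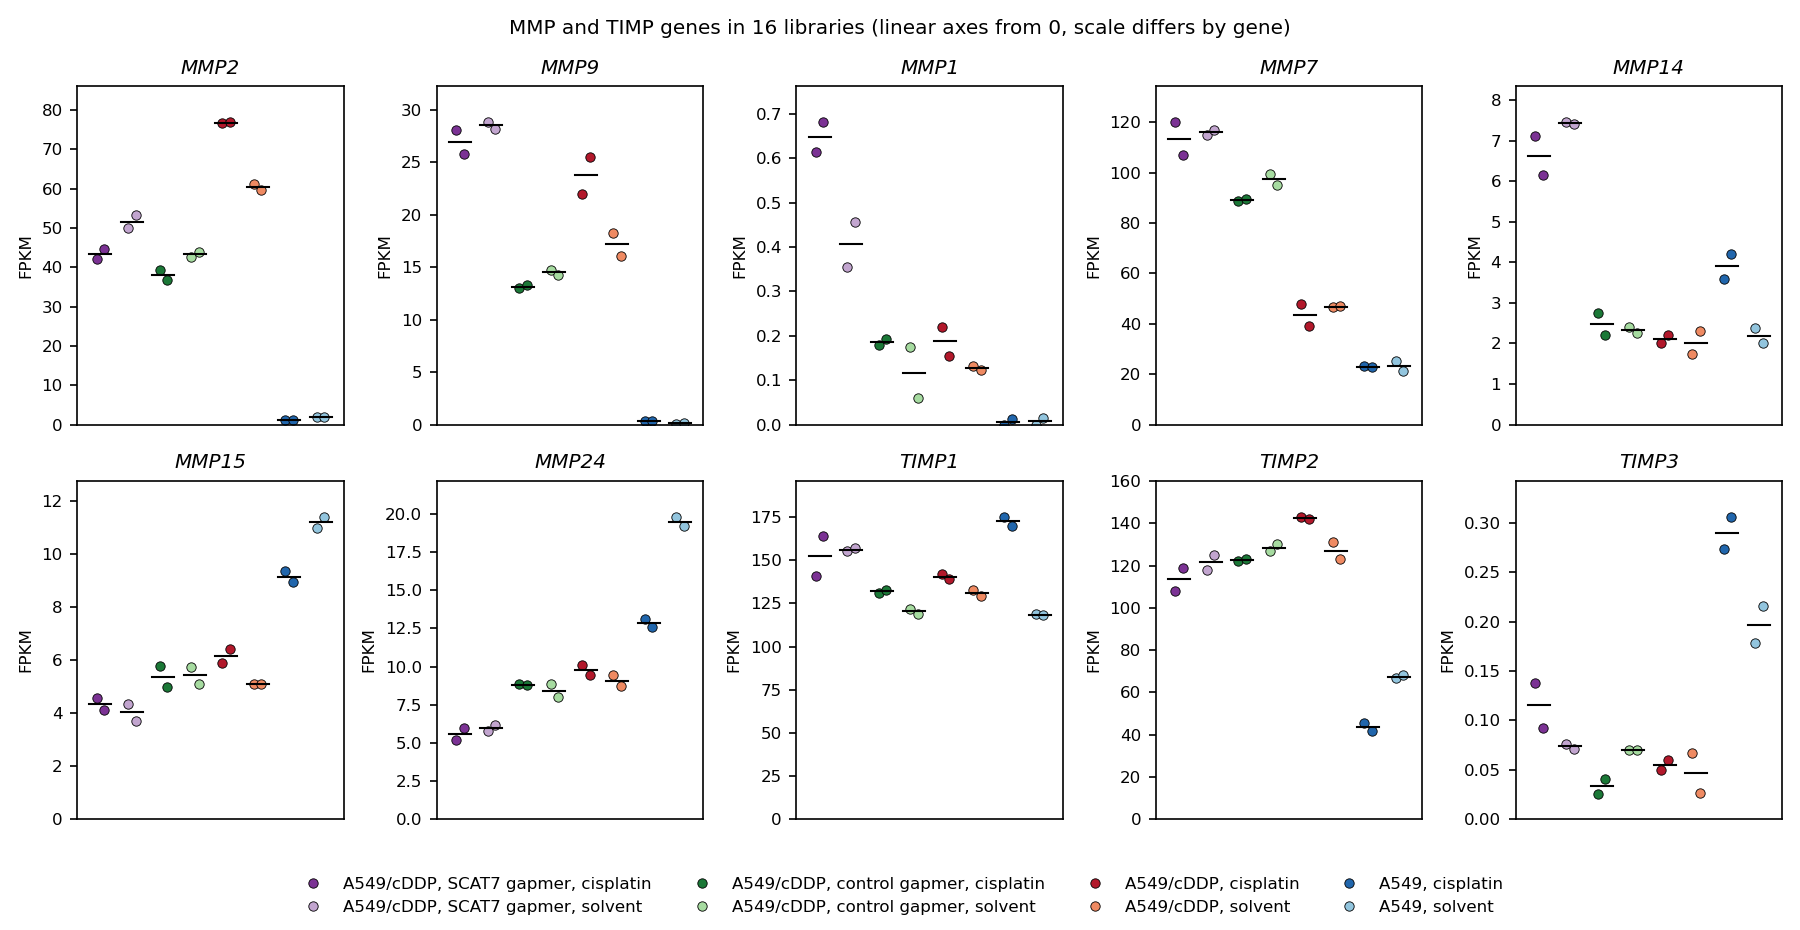
FPKM of the 10 members in the 16 libraries, on linear axes that start at 0 and differ in scale between panels; points are libraries, bars are group means, and each group has 2 libraries. MMP2 and MMP9 sit near 0 in both A549 groups, MMP7 is highest in the 4 transfected groups, and MMP14 is highest in the 2 SCAT7 gapmer groups.

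The resistant and the parental line were compared to see which members differ with the resistant state. In solvent, the gelatinases MMP2 and MMP9, which cut denatured collagen and type IV collagen of basement membranes, were far higher in A549/cDDP, and MMP7 and TIMP2 were higher by about 1 log2 unit. MMP15 and MMP24, both membrane-bound proteases, were lower by a similar amount. Of the 8 tested members 7 passed the test, 5 higher and 2 lower, while 70.2% of all 17198 genes tested passed it, 42.7% higher and 27.5% lower. A call alone therefore does not set the members apart from other genes. MMP9 averaged 0.132 FPKM in A549 in solvent and 0.362 FPKM in A549 in cisplatin. It passed the filter on low values through its level in A549/cDDP and had to be higher there. Its call between the lines is therefore a description in both conditions.

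MMP2 had 61.1 and 59.7 FPKM in A549/cDDP in solvent, against 1.91 and 1.96 FPKM in A549 in solvent. That is 31.2-fold by group means, or 4.64 ± 0.0569 on the log2(FPKM + 0.5) scale (SE, limma adjusted p = 3.22e-14). MMP9 had 18.3 and 16.1 FPKM in A549/cDDP, against 0.105 and 0.158 FPKM in A549. The A549 values rest on about 9 and 13 reads, so the 131-fold ratio of MMP9 means is imprecise; the log2 change was 4.81 with a pseudocount of 0.5 FPKM and ran from 4 to 6.23 over the alternative settings. These are RNA levels of whole cultures, in which more cells with the RNA and more RNA per cell cannot be told apart.

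MMP7, the small matrilysin that epithelial cells secrete, had 46.5 and 47.1 FPKM in A549/cDDP in solvent, against 25.2 and 21.3 FPKM in A549. TIMP2 had 131 and 123 FPKM in A549/cDDP, against 66.7 and 68.3 FPKM in A549. Neither gene's groups overlapped, and the log2 changes were 1 for MMP7 (adjusted p = 6.55e-07) and 0.91 for TIMP2 (adjusted p = 1.09e-08, limma). TIMP2 shares 367 bp of exon with AC022966.1 on the opposite strand, which was also higher, by 1.67 on the same scale. Whether the authors' counting used strand is not given in the sources used here.

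MMP15 had 5.1 and 5.12 FPKM in A549/cDDP in solvent, against 11 and 11.4 FPKM in A549. MMP24 had 9.43 and 8.7 FPKM in A549/cDDP, against 19.8 and 19.2 FPKM in A549. Both groups were well apart, and both genes had a log2 change of -1.07 (limma adjusted p = 5.28e-07 for MMP15 and 7.74e-08 for MMP24). MMP24 shares 799 bp of exon with MMP24OS on the opposite strand, whose level went the other way, with a log2 change of 0.7 (adjusted p = 5.48e-06). Reads of the 2 genes cannot be told apart where they overlap if the counting ignored strand.

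TIMP1, which binds the precursor of MMP9 as well as active proteases, had 133 and 129 FPKM in A549/cDDP in solvent, against 119 and 118 FPKM in A549. Its log2 change of 0.15 (limma adjusted p = 0.0261) equals the median of 0.15 over all genes tested, and median ratio scaling, which brings that median to -0.0064, turned the TIMP1 value to -0.043. The call also ended without A549 solvent replicate 1 (0.15) or 2 (0.14) or A549/cDDP solvent replicate 1 (0.12), with no filter on low values and with a prior without a trend. MMP14 did not pass, at -0.1 with a 95% interval of -0.39 to 0.19. Under quantile normalization MMP14 passed at -0.46 (adjusted p = 0.00882). After median ratio scaling the other changes in solvent were 4.49 for MMP2, 4.75 for MMP9, 0.82 for MMP7, 0.72 for TIMP2, -1.25 for MMP15 and -1.25 for MMP24. The split of all calls also moved, with 60.8% of them higher as deposited and 47.4% higher after median ratio scaling.

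In cisplatin all 8 tested members differed between the lines, 4 higher and 4 lower in A549/cDDP, where 66.5% of all genes passed, 37% higher and 29.5% lower. MMP2 had 76.6 and 76.9 FPKM in A549/cDDP, against 1.29 and 1.11 FPKM in A549, a 64-fold ratio and the highest MMP2 level of the 8 groups. TIMP2 had 143 and 142 FPKM in A549/cDDP, against 45.4 and 41.7 FPKM in A549, with a log2 change of 1.7 (limma adjusted p = 5.93e-11). MMP9 and MMP7 were higher by 4.81 and 0.91 log2 units, the MMP9 call again being a description. MMP14 had 2.01 and 2.21 FPKM in A549/cDDP, against 3.6 and 4.21 FPKM in A549, a log2 change of -0.75 (limma adjusted p = 0.000281). TIMP1 was lower by a log2 change of -0.3, MMP15 by -0.54 and MMP24 by -0.38. For all 8 members the libraries of the 2 lines did not overlap in cisplatin. The share of all genes without overlap was not taken, so this count does not set the members apart.

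**Figure D2:**
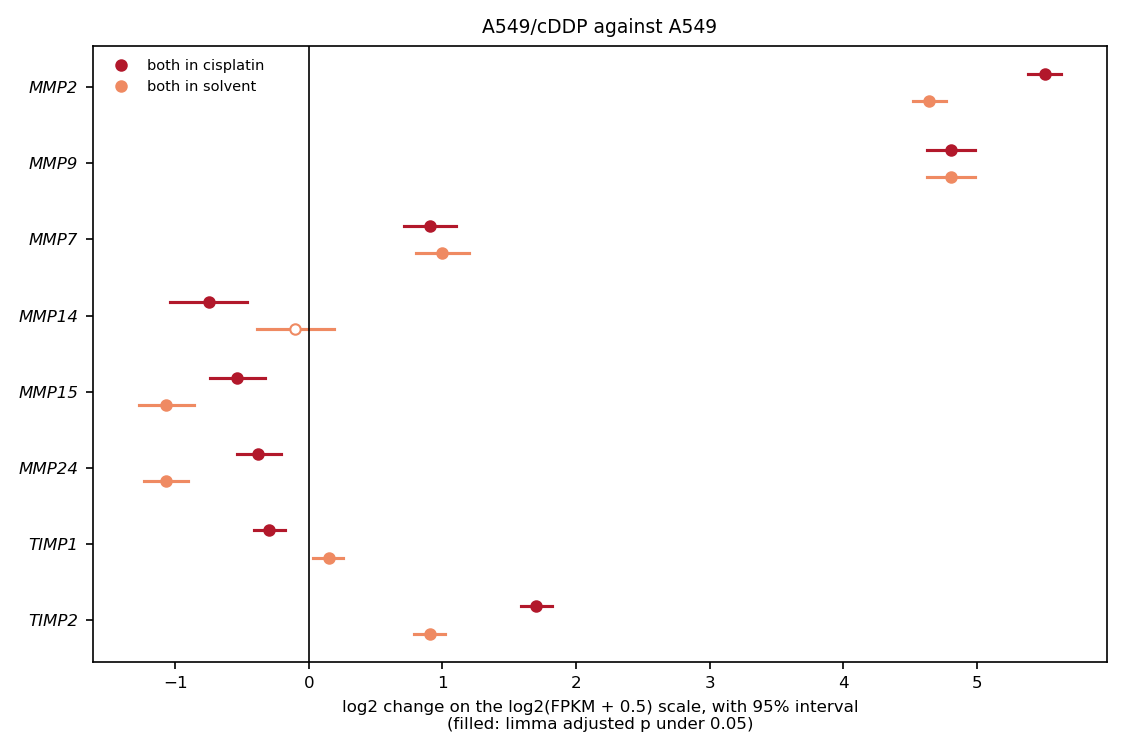
Log2 change of each tested member in A549/cDDP relative to A549, in cisplatin and in solvent, on the log2(FPKM + 0.5) scale with 95% intervals; filled points passed the test. MMP2 and MMP9 lie between 4.64 and 5.51, and all other members lie between -1.07 and 1.7.

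The ratio of MMP2 to TIMP2, the inhibitor that also takes part in its activation, differed between the lines. MMP2 RNA stood at 53.6 and 54 per 100 of TIMP2 in A549/cDDP in cisplatin and at 46.6 and 48.6 in A549/cDDP in solvent, against 2.85 and 2.65 in A549 in cisplatin and 2.87 and 2.87 in A549 in solvent. The sum of MMP2 and MMP9 was 75.8 to 102 FPKM in untransfected A549/cDDP, against 1.47 to 2.12 FPKM in A549. The sum of TIMP1 and TIMP2 was 252 to 285 FPKM in untransfected A549/cDDP, against 185 to 221 FPKM in A549, so TIMP RNA exceeded gelatinase RNA in all 8 of these libraries. These ratios are per length and carry no test.

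Markers of another cell type also moved with the line. The 9 fibroblast markers summed to 28.3 to 55.1 FPKM in the A549/cDDP groups, against 9.57 to 12 FPKM in the A549 groups, and 2 of the 9, COL1A1 and THY1, reached 0.5 FPKM in any group mean. DCN, LUM, PDGFRA, PDGFRB, COL1A2, COL3A1 and POSTN stayed under 0.5 FPKM, and LUM was at 0 in A549/cDDP in solvent while DCN and COL1A2 were at 0 in A549 in solvent; POSTN was at 0 in both lines in cisplatin. The 8 A549 markers summed to 8040 to 10900 FPKM in A549/cDDP groups, against 15800 to 20000 FPKM in A549 groups. Of the 5 endothelial markers none reached 0.5 FPKM.

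Other MMP genes were also higher in A549/cDDP. Of 16 further MMP genes 7 were tested, and all 7 were higher in A549/cDDP in solvent, as were 42.7% of all genes, with a median log2 change of 0.86 against 0.15 over all genes. MMP16, a membrane-type protease, had 4.41 and 4.41 FPKM in A549/cDDP, against 0.107 and 0.0479 FPKM in A549, a log2 change of 3.09 (limma adjusted p = 4.84e-11). MMP11, MMP19 and MMP28 were higher by 1.06, 0.98 and 0.86, from levels in A549 of 0.204, 0.0563 and 2.14 FPKM. MMP11 shares 218 bp of exon with CHCHD10 and MMP19 shares 814 bp with TMEM198B, both on the opposite strand. Genes that passed the filter through their level in A549/cDDP had to be higher there. The count, the median and the p-value of MMP16 are therefore descriptions. In cisplatin 6 of the 7 were higher and 1, MMP23B, was lower, where 37% of all genes were higher and 29.5% lower.

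Of 10 other genes listed with inhibitors 7 were tested, and 6 were higher and 1 lower in A549/cDDP in solvent, where 42.7% of all genes were higher and 27.5% lower. SPOCK1, a testican proteoglycan, had 43 and 40 FPKM in A549/cDDP, against 9.36 and 8.51 FPKM in A549. TIMP4, the fourth TIMP, went the other way, with 2.22 and 2.37 FPKM in A549/cDDP, against 8.5 and 8.06 FPKM in A549. The TIMP4 change was -1.65 on the log2 scale (limma adjusted p = 4.28e-08). PCOLCE2, which enhances procollagen processing and is not itself an MMP inhibitor, was higher by 1.06, and RECK, a membrane-anchored inhibitor, by 0.74.

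Among genes that activate, dock or feed the proteases, more were higher than lower, as among all genes (42.7% higher and 27.5% lower). Of 12 tested convertase and plasminogen genes 10 were higher and 2 lower in A549/cDDP in solvent; SERPINE2, a serpin that blocks plasminogen activators, rose by 2.82, tissue activator PLAT by 2.54 and urokinase PLAU by 1.05. Of 12 tested docking and induction genes 8 were higher and 3 lower, among them the endocytic receptor LRP1 by 2.47 and the integrin subunit ITGB3 by 2.03. Of 12 tested matrix substrates 10 were higher and none lower, with a median of 1.21; COL4A1 of type IV collagen rose by 1.99 and COL1A1 by 1.94. Of 12 tested ADAM and ADAMTS genes 7 were higher and 3 lower, with ADAMTS1 at 2.48 and ADAM12 at -2.06.

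The response to cisplatin was then compared within each line. In A549 the drug raised MMP9, MMP14 and TIMP1 and lowered MMP2, MMP15, MMP24 and TIMP2, and MMP7 did not pass the test. These are 7 of 8 tested members, where 60.4% of all genes passed, 33.3% higher and 27.1% lower. MMP9 among them averaged 0.362 FPKM in cisplatin and 0.132 FPKM in solvent, both under 0.5 FPKM. In A549/cDDP the only members that passed were MMP2 and MMP9, both higher, where 8.1% of all genes passed, 3.55% higher and 4.55% lower.

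In A549, TIMP1 had 175 and 170 FPKM in cisplatin, against 119 and 118 FPKM in solvent, a log2 change of 0.54 ± 0.0525 (SE, limma adjusted p = 1.76e-06). TIMP2 had 45.4 and 41.7 FPKM in cisplatin, against 66.7 and 68.3 FPKM in solvent, a log2 change of -0.63 ± 0.0522 (SE, limma adjusted p = 4.33e-07). The 2 inhibitors thus changed in opposite directions without overlap of their groups, and TIMP1 stood at 3.86 and 4.07 times TIMP2 in cisplatin, against 1.78 and 1.73 times in solvent. MMP14, which needs TIMP2 to activate MMP2, had 3.6 and 4.21 FPKM in cisplatin, against 2.37 and 2.02 FPKM in solvent. This was a change of 0.71 on the log2 scale (limma adjusted p = 0.000519).

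MMP2 had 1.29 and 1.11 FPKM in A549 in cisplatin, against 1.91 and 1.96 FPKM in solvent, a log2 change of -0.52 (limma adjusted p = 5.22e-06). MMP24 had 13.1 and 12.6 FPKM in cisplatin, against 19.8 and 19.2 FPKM in solvent, a change of -0.58, while its antisense neighbour MMP24OS rose by 0.44. MMP15 was lower by a log2 change of -0.28 (adjusted p = 0.0193), and that call ended without A549 solvent replicate 2 or without A549 cisplatin replicate 2. MMP9 had 0.364 and 0.36 FPKM in cisplatin, against 0.105 and 0.158 FPKM in solvent, or 31 and 31 reads against 9 and 13. Its log2 change of 0.45 was 1.01 with a pseudocount of 0.1 and 0.27 with a pseudocount of 1, and it passed with both. MMP9 shares 430 bp of exon with SLC12A5-AS1 on the opposite strand, which averaged 0.256 FPKM in A549 in cisplatin and 0.102 FPKM in solvent; whether reads were counted by strand is not given, and the part of its reads in the MMP9 value was not tested. The 8 leukocyte markers summed to 16 to 17 FPKM in A549 in cisplatin, against 5.49 to 7.24 FPKM in solvent. These sums were chiefly ITGAM, at group means of 14.3 and 4.57 FPKM. CD14 also reached a group mean of 0.5 FPKM in both conditions and TYROBP in cisplatin only. The pan-leukocyte gene PTPRC was at 0 in cisplatin and at 0.00881 FPKM in solvent.

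In A549/cDDP, MMP2 had 76.6 and 76.9 FPKM in cisplatin, against 61.1 and 59.7 FPKM in solvent, a log2 change of 0.34 (limma adjusted p = 0.00362). MMP9 had 22 and 25.5 FPKM in cisplatin, against 18.3 and 16.1 FPKM in solvent, a change of 0.45 (limma adjusted p = 0.0058). The MMP9 call ended without A549/cDDP solvent replicate 2 (0.36), without A549/cDDP cisplatin replicate 2 (0.35), and when only the 4 libraries compared were fitted. TIMP2 at 0.17 and MMP15 at 0.25 did not pass (limma adjusted p = 0.0724 for TIMP2 and 0.14 for MMP15).

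The difference between the lines was tested directly. Of 8 tested members 6 responded differently, where 47% of all genes did, 21.5% above and 25.6% below the response of A549. The response of A549/cDDP exceeded that of A549 by 0.86 for MMP2, 0.79 for TIMP2, 0.69 for MMP24 and 0.53 for MMP15 on the log2 scale (limma adjusted p from 2.49e-06 to 0.00547). It was below that of A549 for TIMP1, by -0.44, and for MMP14, by -0.65 (limma adjusted p = 0.000362 for TIMP1 and 0.0131 for MMP14). The MMP14 difference lost its call under quantile normalization (-0.4) and without A549 solvent replicate 2, A549 cisplatin replicate 2 or A549/cDDP solvent replicate 2 (-0.55, -0.55 and -0.48). For MMP9 the difference was 0.0032 with a 95% interval of -0.25 to 0.26, but it was -0.54 (adjusted p = 0.0108) with a pseudocount of 0.1. MMP7 gave -0.094 with an interval of -0.37 to 0.18. Differences above 0 made up 45.6% of all calls as deposited, 54.7% after median ratio scaling and 53.5% after quantile normalization.

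**Figure D3:**
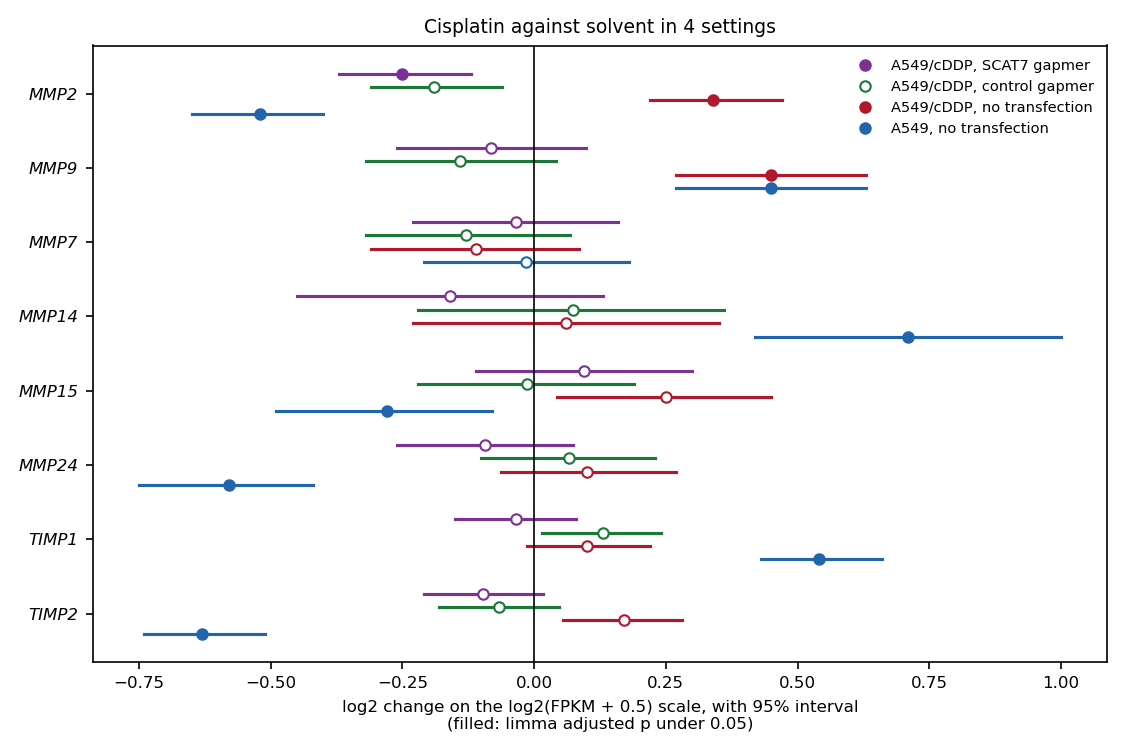
Log2 change with cisplatin relative to solvent for each tested member in 4 settings, on the log2(FPKM + 0.5) scale with 95% intervals; filled points passed the test. In untransfected A549 7 of 8 members passed, and MMP2 lies at -0.52 in A549 and at 0.34 in untransfected A549/cDDP.

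Among the listed genes around the proteases, the response in A549 was mixed, where 33.3% of all genes were higher and 27.1% lower. The 12 tested matrix substrates held 2 higher and 9 lower, with a median log2 change of -0.53 against 0.057 over all genes; TNC changed by -1.7, COL4A2 by -1.62 and COL5A1 by -1.48, while the laminin chain LAMB3 rose by 1.49. Of 12 ADAM and ADAMTS genes 8 were lower and 2 higher, led by ADAM12 at -2.96. SPOCK1 had 0.511 and 0.464 FPKM in cisplatin, against 9.36 and 8.51 FPKM in solvent, and TIMP4 had 16.4 and 16.9 FPKM in cisplatin, against 8.5 and 8.06 FPKM in solvent. PLAT rose by 2.24, LRP1 by 2.35 and LCN2, which binds MMP9, by 1.68. Of the 7 other MMP genes tested, MMP23B and MMP11 were higher by 1.03 and 0.61 and MMP17 was lower by -0.55. MMP23B has a near-identical pseudogene, MMP23A, so its value is uncertain. The same lists in A549/cDDP gave 3 higher and 2 lower substrates and no called ADAM or ADAMTS gene, where 3.55% of all genes were higher and 4.55% lower.

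In A549/cDDP carrying a gapmer the drug moved few members. With the control gapmer none of the 8 passed, where 2.53% of all genes did, 1.67% higher and 0.855% lower (limma, adjusted p); 2 passed at an unadjusted p of 0.05, MMP2 at -0.19 and TIMP1 at 0.13. With the SCAT7 gapmer 1 passed, where 4.18% of all genes did, 2.92% higher and 1.26% lower. MMP2 had 42.1 and 44.7 FPKM in cisplatin, against 50 and 53.2 FPKM in solvent, a log2 change of -0.25 (limma adjusted p = 0.0373). The call held in 4 of 13 alternatives, and it ended without either SCAT7 gapmer solvent library and without SCAT7 gapmer cisplatin replicate 1 (-0.29, -0.2 and -0.2); without SCAT7 gapmer cisplatin replicate 2 TIMP1 also passed, at -0.14.

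MMP2 and MMP9 thus rose with cisplatin in untransfected A549/cDDP and not after the control gapmer, and a comparison of the 2 responses was added after these values were seen. The response after the control gapmer was lower than the untransfected one by a log2 value of -0.53 for MMP2 (limma adjusted p = 0.00641) and -0.59 for MMP9 (limma adjusted p = 0.0248), 2 of 8 members, where 1.88% of all genes passed, 1.15% higher and 0.738% lower. The MMP2 difference kept its call in 17 of 17 alternatives and the MMP9 difference in 9 of 17. MMP9 lost it without A549/cDDP solvent replicate 2 (-0.5), A549/cDDP cisplatin replicate 2 (-0.48) or any of the 4 control gapmer libraries (-0.61 to -0.57), with a pseudocount of 0.1 (-0.6) and with no filter on low values.

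The control gapmer was compared with no transfection to see what the procedure itself moved. These cells also differed in the transfection reagent and may have differed in time in culture, and neither can be told apart from the gapmer. In solvent 3 of 8 members passed, 1 higher and 2 lower, where 39.7% of all genes did, 20.7% higher and 19% lower. MMP7 had 99.6 and 95.2 FPKM with the control gapmer, against 46.5 and 47.1 FPKM without transfection, a 2.08-fold ratio and a log2 change of 1.05 (limma adjusted p = 2.46e-06). MMP2 had 42.7 and 43.9 FPKM with the control gapmer, against 61.1 and 59.7 FPKM without transfection, a change of -0.48 (limma adjusted p = 3.8e-05). MMP9 passed at -0.23 (limma adjusted p = 0.0403), a call that ended without A549/cDDP solvent replicate 1 (-0.14) or either control gapmer solvent library (-0.25 and -0.21), with a pseudocount of 0.1 (-0.24), with no filter on low values and with only the 4 libraries compared.

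In cisplatin 4 of 8 passed, 1 higher and 3 lower, where 42.4% of all genes did, 23% higher and 19.4% lower. MMP7 had 88.6 and 89.7 FPKM with the control gapmer, against 47.8 and 39.2 FPKM without transfection. MMP2 had 39.3 and 36.8 FPKM with the control gapmer, against 76.6 and 76.9 FPKM without transfection, a log2 change of -1 (limma adjusted p = 7.17e-08). MMP9 and TIMP2 changed by -0.82 and -0.22. MMP7 rose by 1.03 in cisplatin (limma adjusted p = 2.28e-06), and its 4 control gapmer libraries lay above all 4 untransfected libraries of the line.

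The SCAT7 gapmer was set against the control gapmer in A549/cDDP to see which members move with it. With a single gapmer against SCAT7, loss of SCAT7 cannot be told apart from other effects of that gapmer. In solvent MMP14, MMP9, TIMP1, MMP2 and MMP7 were higher and MMP24 and MMP15 lower, and TIMP2 did not pass. These are 7 of 8 tested members, where 55.8% of all genes passed, 33.2% higher and 22.7% lower. In cisplatin MMP14, MMP9, MMP7, TIMP1 and MMP2 were also higher and MMP24 and MMP15 lower, where 49.7% of all genes passed, 28.6% higher and 21.1% lower.

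MMP14, the membrane protease that activates MMP2, had 7.45 and 7.42 FPKM with the SCAT7 gapmer in solvent, against 2.4 and 2.25 FPKM with the control gapmer. The ratio was 3.2-fold and the log2 change 1.49 ± 0.133 (SE, limma adjusted p = 1.53e-06). In cisplatin MMP14 had 7.11 and 6.14 FPKM with the SCAT7 gapmer, against 2.75 and 2.22 FPKM with the control gapmer, a log2 change of 1.26 (limma adjusted p = 9.94e-06). No control gapmer library came near the SCAT7 gapmer libraries, which were the highest of all 16 for MMP14.

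MMP9 had 28.8 and 28.2 FPKM with the SCAT7 gapmer in solvent, against 14.7 and 14.3 FPKM with the control gapmer, a log2 change of 0.95 (limma adjusted p = 1.17e-06). In cisplatin MMP9 had 28.1 and 25.8 FPKM with the SCAT7 gapmer, against 13 and 13.3 FPKM with the control gapmer, a log2 change of 1.01. The 2 ratios were 1.96-fold in solvent and 2.05-fold in cisplatin, without overlap of groups. Untransfected A549/cDDP in cisplatin, at 22 and 25.5 FPKM, lay between the 2 gapmers.

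TIMP1 had 155 and 157 FPKM with the SCAT7 gapmer in solvent, against 122 and 119 FPKM with the control gapmer, a log2 change of 0.37 (limma adjusted p = 7.33e-05). In cisplatin it had 141 and 164 FPKM with the SCAT7 gapmer, against 131 and 133 FPKM with the control gapmer, a change of 0.21 (limma adjusted p = 0.00604). Without SCAT7 gapmer cisplatin replicate 2 that change was 0.1, and it did not pass with only the 4 libraries compared. TIMP2 did not pass in either condition, at -0.084 in solvent and -0.11 in cisplatin, and it passed at -0.16 in both after median ratio scaling and at -0.18 in cisplatin without SCAT7 gapmer cisplatin replicate 2.

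MMP2 and MMP7 changed less. MMP2 had 50 and 53.2 FPKM with the SCAT7 gapmer in solvent, against 42.7 and 43.9 FPKM with the control gapmer, a log2 change of 0.25. MMP7 had 115 and 117 FPKM with the SCAT7 gapmer in solvent, against 99.6 and 95.2 FPKM with the control gapmer, also 0.25. For MMP2, untransfected A549/cDDP lay above both gapmers, at 61.1 and 59.7 FPKM in solvent and 76.6 and 76.9 FPKM in cisplatin. The MMP7 call in solvent (limma adjusted p = 0.0303) ended without any single library of the 4 compared, at 0.22 to 0.29, after median ratio scaling at 0.17, with no filter on low values and with a prior without a trend. In cisplatin the MMP7 change of 0.34 lost its call without SCAT7 gapmer cisplatin replicate 1 (0.26), and the MMP2 change of 0.19 lost it without control gapmer cisplatin replicate 2 (0.14) or SCAT7 gapmer cisplatin replicate 2 (0.15), after median ratio scaling (0.14) and with only the 4 libraries compared.

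MMP24 had 5.76 and 6.17 FPKM with the SCAT7 gapmer in solvent, against 8.84 and 7.98 FPKM with the control gapmer, a log2 change of -0.46 (limma adjusted p = 0.000242). In cisplatin MMP24 had 5.17 and 5.97 FPKM with the SCAT7 gapmer, against 8.86 and 8.77 FPKM with the control gapmer, a change of -0.62. MMP15 changed by -0.39 in solvent and -0.28 in cisplatin, and its call in cisplatin ended without control gapmer cisplatin replicate 1 (-0.18) or SCAT7 gapmer cisplatin replicate 2 (-0.21), or with only the 4 libraries compared. Of the 3 membrane-bound members, MMP14 was thus higher and MMP15 and MMP24 lower with the SCAT7 gapmer. MMP24OS gave 0.18 in solvent and did not pass (adjusted p = 0.0726).

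**Figure D4:**
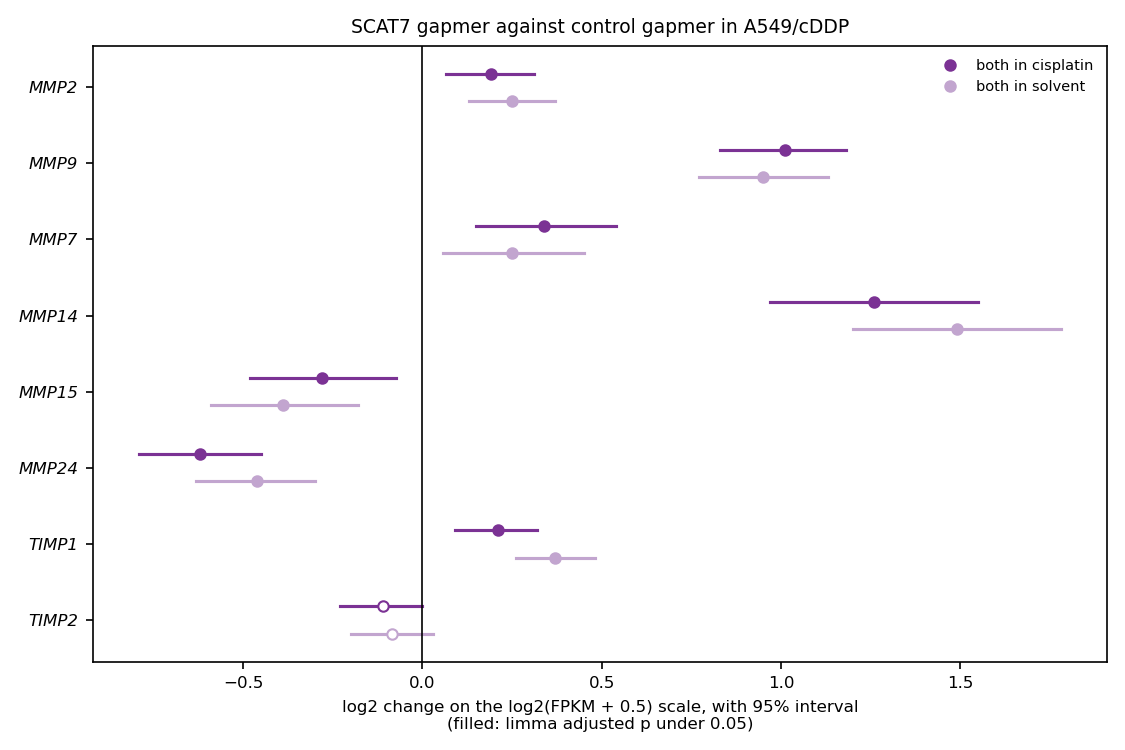
Log2 change of each tested member with the SCAT7 gapmer relative to the control gapmer in A549/cDDP, in cisplatin and in solvent, on the log2(FPKM + 0.5) scale with 95% intervals; filled points passed the test. MMP14 at 1.26 and 1.49 and MMP9 at 1.01 and 0.95 lie farthest to the right, and MMP24 and MMP15 lie left of 0.

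The effect of the SCAT7 gapmer did not differ detectably between cisplatin and solvent for any of the 8 members, where 0.93% of all genes passed, 0.488% higher and 0.442% lower (limma, adjusted p). At an unadjusted p of 0.05 there was 1, TIMP1 at -0.16, and it passed the adjusted test at -0.27 without SCAT7 gapmer cisplatin replicate 2 (adjusted p = 0.016). For MMP14 the difference was -0.23 with a 95% interval of -0.64 to 0.18.

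MMP1 had 0.613 and 0.681 FPKM with the SCAT7 gapmer in cisplatin and 0.356 and 0.456 FPKM in solvent, against 0.179 and 0.192 FPKM with the control gapmer in cisplatin and 0.176 and 0.0589 FPKM in solvent. That is about 40 and 44 reads in cisplatin and 22 and 30 in solvent with the SCAT7 gapmer, against 15 and 16 in cisplatin and 15 and 5 in solvent with the control gapmer. Without the filter on low values, MMP1 passed with a log2 change of 0.74 in cisplatin and 0.56 in solvent (limma adjusted p = 0.000302 and 0.00144). The A549 groups held 0 and 1 MMP1 reads each. MMP1 shares 150 bp of exon with the pseudogene WTAPP1 on the opposite strand, which averaged 0.485 FPKM with the SCAT7 gapmer and 0.326 FPKM with the control gapmer in cisplatin, and 0.801 FPKM with the SCAT7 gapmer and 0.321 FPKM with the control gapmer in solvent. The part of its reads in the MMP1 value was not tested.

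Some other MMP genes were also higher with the SCAT7 gapmer. Of the 7 tested 4 were higher in solvent, where 33.2% of all genes were higher and 22.7% lower, and 3 were higher and 1 lower in cisplatin, where 28.6% of all genes were higher and 21.1% lower. A gene that passed the filter on low values through its level with the SCAT7 gapmer had to be higher there. The count is therefore a description, as is the p-value of such a gene. MMP25, a membrane-type protease known from leukocytes, had 9.22 and 7.11 FPKM with the SCAT7 gapmer in solvent, against 0.612 and 0.414 FPKM with the control gapmer, a log2 change of 3.09 (limma adjusted p = 9.85e-09). It shares 1454 bp of exon with MMP25-AS1 on the opposite strand. MMP23B, MMP28 and MMP19 rose by 1.29, 0.8 and 0.64 in solvent. The 8 leukocyte markers summed to 12.8 to 13.6 FPKM with the SCAT7 gapmer in solvent, against 7.64 to 8 FPKM with the control gapmer. These sums were mostly ITGAM. By group means ITGAM reached 0.5 FPKM with both gapmers and CD68 with the SCAT7 gapmer only, while CD3E and TYROBP were at 0 in both. The part of leukocytes in the MMP25 value was not tested.

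For the SCAT7 gapmer in solvent, 33.2% of all genes were higher and 22.7% lower. Of the 7 tested genes listed with inhibitors, SPOCK2 rose by 2.56 and TFPI2, a Kunitz-type protease inhibitor of the matrix, by 0.27, and SPOCK1 changed by -0.59 in solvent. SPOCK2 had 8.27 and 7.23 FPKM with the SCAT7 gapmer, against 0.796 and 1 FPKM with the control gapmer. Of 12 convertase and plasminogen genes 8 were higher and 2 lower in solvent; HPN, a membrane serine protease, had 6.11 and 5.31 FPKM with the SCAT7 gapmer, against 0.146 and 0.195 FPKM with the control gapmer, and SERPINB2 rose by 1.46. Of 12 docking genes 7 were higher and 2 lower, with LRP1 at 0.82 and LCN2 at 0.61, and of 12 ADAM and ADAMTS genes 6 were higher and 2 lower, led by ADAM8 at 1.41. Among 12 substrates 5 were higher and 4 lower; the type IV collagen chains COL4A2 and COL4A1 changed by -1 and -0.78, and the laminin chain LAMB3 by 0.73.

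**Figure D5:**
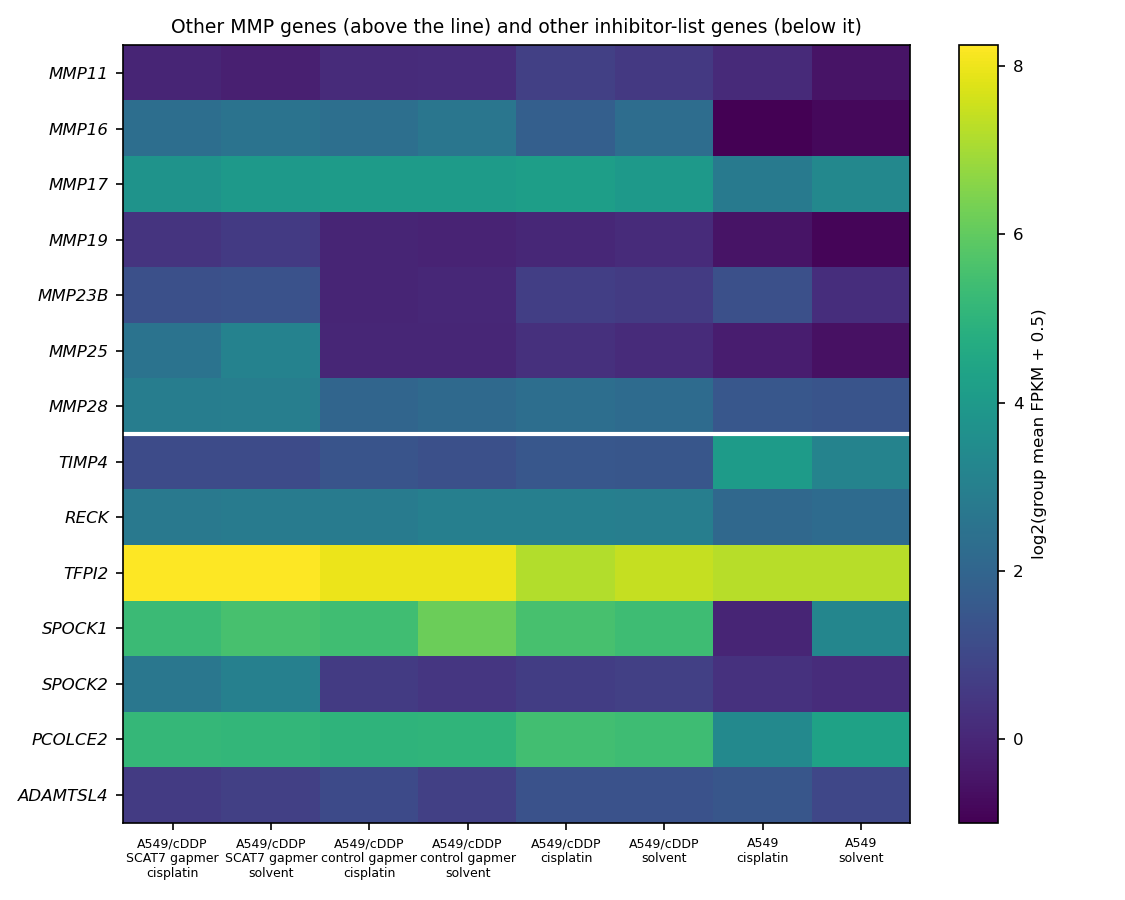
Group means, as log2(FPKM + 0.5), of the 7 tested other MMP genes (above the white line) and the 7 tested genes listed with inhibitors (below it), by group; each group has 2 libraries. MMP16 is dark in both A549 groups, MMP25 and SPOCK2 are bright in the 2 SCAT7 gapmer groups, and SPOCK1 is dark in A549 in cisplatin.

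The genes most like a member were sought over the 8 group means among 11741 genes that reach 5 FPKM in some group. Pearson's r is given as a description, since the groups share lines and treatments. MMP2 was closest to GLIPR1 (0.998), FSTL1 (0.998) and CLTC (0.997). MMP9 was closest to CARF, DNAL1 and KANSL1L, each at 0.997. MMP14 was closest to NSRP1 (0.993), ITGA2B (0.992) and NBPF19 (0.992), the last of a family with near-identical copies. TIMP1 was closest to KDM7A (0.989), ZNF674 (0.987) and AC105219.1 (0.987). FSTL1, for example, averaged 231 FPKM in A549/cDDP and 82.7 FPKM in A549 in solvent, a smaller span than MMP2.

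Positions are from GENCODE 29 on GRCh38. MMP1 and MMP7 lie on chromosome 11 at 102789920 to 102798160 and 102520508 to 102530753, both on the minus strand. MMP2 lies on chromosome 16 at 55389700 to 55506691 and MMP15 on the same chromosome at 58025566 to 58046901, both on the plus strand. MMP9 and MMP24 lie on chromosome 20 at 46008908 to 46016561 and 35226654 to 35277000, plus strand. MMP14 lies on chromosome 14 at 22836557 to 22849027, plus strand. TIMP1 lies on chromosome X at 47582313 to 47586789, plus strand, TIMP2 on chromosome 17 at 78852977 to 78925387, minus strand, and TIMP3 on chromosome 22 at 32801701 to 32863043, plus strand. Values are for whole genes, over all annotated exons.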

How the data were processed

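RNA of 16 libraries in 8 groups of 2 was enriched with oligo(dT) beads before sequencing, as the labels' protocols state. The authors deposited FPKM per gene and per library; TopHat2, HTSeq 0.6.1 and hg38 are named in the submitters' processing notes. The annotation release, the strand setting and any further scaling are not given in the sources used here. Symbols and positions for 56868 of 60448 identifiers came from GENCODE 29. Depth was recovered from the steps of low FPKM values, of which 67.6% to 72.9% came out whole within 0.02 reads, so no count test was run.

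The 17198 genes that averaged 0.5 FPKM or more across all 16 libraries were tested with limma 3.58.1 in R 4.3.3 on log2(FPKM + 0.5). A mean was fitted to each of the 8 groups, leaving 8 residual degrees of freedom, with a trended prior. Two-sided p-values were adjusted by the Benjamini-Hochberg method over all 17198 genes, with a threshold of 0.05. A fold change on this scale understates the change of low genes. The script was tested on simulated data with 200 changed genes. A member was called too low to read where its highest group mean was under 0.5 FPKM. The 10 members and the 6 lists of 87 related genes were chosen with earlier results of these data known. At most 4 called genes of a list, those with the largest change, are named; 1 listed gene is not reported here. Replicate numbers come from the titles. Alternatives changed the pseudocount, filter, scaling, prior, replicate block and libraries fitted, and left out each library in turn.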

Additional observations from a re-analysis of the deposited data

Results flagged for a closer look

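For 6 members the response to cisplatin differed between the lines by a test of the difference, A549/cDDP minus A549. The values were 0.86 for MMP2, 0.79 for TIMP2, 0.69 for MMP24 and 0.53 for MMP15, which lie above 0, and -0.44 for TIMP1 and -0.65 for MMP14, which lie below it, in log2 units. The differences of MMP2, TIMP2, MMP24, MMP15 and TIMP1 kept their calls in 17 of 17 alternatives, and that of MMP14 in 13 of 17.

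For 2 members the response to cisplatin in A549/cDDP differed between the control gapmer and no transfection, at -0.53 for MMP2 and -0.59 for MMP9. This comparison was chosen after the values were seen.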

How the results depend on the processing

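Of 936 values recomputed under other settings, 900 kept their direction and side of the threshold, 23 lost and 7 gained a call, and 6 changed sign. MMP9 in the difference between the lines turned to -0.54 with a pseudocount of 0.1, and TIMP1 between the lines in solvent to -0.043 after median ratio scaling. The other 4 passed in neither setting: TIMP2 with the control gapmer in solvent (-0.054 after quantile normalization), MMP14 in the added difference of cisplatin responses (-0.016 after median ratio scaling and -0.067 after quantile normalization) and TIMP1 in it (-0.0079 after median ratio scaling). Of 512 values with a library left out, 446 kept both, 31 lost and 3 gained a call, and 32 changed sign. With cisplatin in A549, MMP7 ran from -0.14 to 0.1 with a library left out, and in A549/cDDP MMP7 ran from -0.25 to 0.031 and MMP14 from -0.1 to 0.22. In the difference between the lines MMP7 ran from -0.24 to 0.048 and MMP9 from -0.1 to 0.11, and between the lines in solvent MMP14 ran from -0.27 to 0.061. With cisplatin after the control gapmer the ranges were -0.054 to 0.2 for MMP14, -0.11 to 0.084 for MMP15 and -0.0045 to 0.14 for MMP24, and after the SCAT7 gapmer -0.12 to 0.052 for MMP7, -0.0035 to 0.19 for MMP15, -0.19 to 0.0014 for MMP24 and -0.14 to 0.071 for TIMP1. With the control gapmer in solvent they were -0.029 to 0.066 for TIMP2 and -0.00013 to 0.16 for MMP15. In the added difference they were -0.16 to 0.13 for MMP7, -0.15 to 0.18 for MMP14 and -0.11 to 0.033 for MMP24, and in the difference of the SCAT7 gapmer effects -0.0043 to 0.12 for MMP9 and -0.099 to 0.038 for TIMP2. Of the member counts, the count for cisplatin in A549/cDDP (2) was 1 with only the libraries compared, and 1 to 2 with a library left out. That for cisplatin with the SCAT7 gapmer (1) was 0 with a pseudocount of 0.1, no filter, median ratio scaling, the replicate block, a prior without a trend or only the libraries compared, and 0 to 2 with a library left out. That for the SCAT7 gapmer in cisplatin (7) was 4 with only the libraries compared. That for the difference of the SCAT7 gapmer effects (0) was 0 to 1 with a library left out. That for the added difference of cisplatin responses (2) was 1 with a pseudocount of 0.1 or no filter, and 1 to 2 with a library left out. The cause was not tested.

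Over all genes, the 1393 called with cisplatin in A549/cDDP became 417 with only the libraries compared, the 435 with the control gapmer 270, and the 719 with the SCAT7 gapmer 308 without a trend and 0 with only the libraries compared. For the difference of SCAT7 gapmer effects 160 became 262 with no filter, 75 without a trend and 10 with only the libraries compared, and for the added difference 324 became 167 without a trend. With a library left out, the lowest of these counts were 509, 137, 9, 45 and 110, and without SCAT7 gapmer cisplatin replicate 2 the 719 became 1626 and the 160 became 462. Calls that were higher made up 66.2% with cisplatin after the control gapmer (53.8% after median ratio scaling), 69.8% after the SCAT7 gapmer (59.4% after quantile normalization), 59.4% for the SCAT7 gapmer in solvent (49.2% after median ratio scaling), 54.3% for the control gapmer in cisplatin (43.9% after quantile normalization) and 60.8% for the added difference (40.8% after median ratio scaling).

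Replicate numbers were not taken to pair libraries: correlations of same-numbered deviations ran from -0.0727 to 0.113. With the number as a block, MMP2 with cisplatin after the SCAT7 gapmer (adjusted p = 0.0506) and MMP9 with the control gapmer in solvent (adjusted p = 0.0521) lost their calls. With 2 libraries a group, small changes cannot be told from library spread, and MMP9 and MMP1 in A549 rest on few reads.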
